A study of Mus musculus with 35 samples.

Results

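The genes studied here encode the proteins of the mitochondrial ribosome and carry symbols made of Mrpl or Mrps, a number and at most 1 further letter. This rule found 78 genes, 49 Mrpl and 29 Mrps, with the same symbols in every count table, among 32285 genes in the tables of the lactate experiment and of the technique comparison and 35624 genes in the table of the AZD3965 experiment. No measured value was used to choose them. The RNA of 35 single cells labelled peritoneal macrophages, taken from male C57BL/6 mice aged 6 months, was sequenced with SMART-seq2, a method that amplifies full-length cDNA (20 PCR cycles here).

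The lactate experiment held 8 cells given 10 mM lactate for 72 h and 8 control cells, all processed by scMeT-seq, in which a nano-capillary draws off a little cytoplasm for metabolite measurement before the rest of the cell is lysed for sequencing. The AZD3965 experiment held 5 cells given 10 mM lactate with 300 nM AZD3965 (lactate+AZD), an inhibitor of the lactate transporter MCT1, and 5 cells given lactate alone, again after scMeT-seq. The technique comparison held 4 lactate-treated scMeT-seq cells, 3 lactate-treated cells lysed whole and 2 control cells lysed whole. All cells came from mice of 1 strain and 1 sex without a stated genetic change. Which mouse or dish each cell came from is not stated, so the cells of a group were read as cells of 1 sample, no test was run over them and no difference has a replicate check. A ratio past 2-fold is called higher or lower as a description.

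Mitochondria keep a ribosome of their own, built from RNAs encoded by the mitochondrial genome and from proteins encoded in the nucleus, made in the cytosol and imported. It translates the few messages of the mitochondrial genome, all for subunits of the respiratory chain and ATP synthase. Its small subunit reads the message and its large subunit joins the amino acids and feeds the chain into the inner membrane. Part of its proteins have counterparts in bacterial ribosomes and part are found only in mitochondria. By the known structure, 51 of the 78 genes belong to the large subunit, among them Mrps18a and Mrps30 in spite of their symbols, and 26 to the small subunit, while the product of Mrps36 is now placed in the oxoglutarate dehydrogenase complex. Bacterial counterparts were assigned to 47 genes, and 29 were taken as specific to mitochondria, with Mrps18a and Mrps36 assigned to neither. The genes lie on 17 chromosomes.

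Promoters are shown for 6 members, because Mrps21 was the member counted in every cell, Mrpl12 and Mrpl52 were among the most abundant, Mrpl45 held the motif of NRF1 more than once, and Mrpl21 and Mrpl1 were the members at least 2-fold lower with lactate in both lactate comparisons. NRF1 (nuclear respiratory factor 1), ETS factors such as GABPA, and YY1 are transcription factors known for many nuclear genes of mitochondrial proteins. The stretches are the 130 bases before the RefSeq start site (build GRCm38.p6), 5′ to 3′ on the strand of the gene, with NRF1 (GCGC, any base, then TGCGC) and ETS (CCGGAAG) motifs of either strand in capitals. They lie at chr3:95871515-95871644 on the minus strand (Mrps21), chr11:120484507-120484636 (Mrpl12), chr14:54426779-54426908 (Mrpl52), chr11:97315586-97315715 (Mrpl45), chr19:3282912-3283041 (Mrpl21) and chr5:96209985-96210114 (Mrpl1), the last 5 on the plus strand.
Mrps21: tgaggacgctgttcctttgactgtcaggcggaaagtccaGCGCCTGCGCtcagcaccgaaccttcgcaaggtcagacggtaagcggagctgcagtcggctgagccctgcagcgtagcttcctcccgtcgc
Mrpl12: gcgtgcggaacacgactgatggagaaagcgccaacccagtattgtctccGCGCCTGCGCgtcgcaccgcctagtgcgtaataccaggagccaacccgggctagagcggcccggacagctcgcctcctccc
Mrpl52: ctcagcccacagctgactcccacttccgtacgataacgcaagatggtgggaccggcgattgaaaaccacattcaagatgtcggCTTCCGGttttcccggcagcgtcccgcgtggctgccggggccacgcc
Mrpl45: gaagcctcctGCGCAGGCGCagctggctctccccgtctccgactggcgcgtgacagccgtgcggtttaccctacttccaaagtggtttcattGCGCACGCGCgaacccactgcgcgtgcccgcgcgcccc
Mrpl21: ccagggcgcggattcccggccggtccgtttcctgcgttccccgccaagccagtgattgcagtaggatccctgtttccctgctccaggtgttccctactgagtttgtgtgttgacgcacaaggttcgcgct
Mrpl1: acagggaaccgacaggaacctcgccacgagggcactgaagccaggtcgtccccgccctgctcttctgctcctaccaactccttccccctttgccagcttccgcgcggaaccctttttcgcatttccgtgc

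The NRF1 motif started 91 bases before the start site in Mrps21 and 81 bases before it in Mrpl12, and in Mrpl45 it started 120 and 38 bases before it. The ETS motif of Mrpl52 started 47 bases before the start site. No such motif lay in the stretches shown for Mrpl21 and Mrpl1. Motifs also began just after the start site, outside the stretches, in Mrps21, Mrpl52, Mrpl45 and Mrpl21. In GENCODE M21 the genes Mrpl21 and Mrpl1 start at 3282901 and 96209493, before their stretches, and the bases before those positions were not shown. Mrpl12 and Mrps21 start in GENCODE at 120484613 and 95871519, inside their stretches. The distances above are counted from the RefSeq start. The full window of 300 bases, 250 before and 50 after the start, was given for 69 of the 78 members. In it, the NRF1 motif was found in 13 members (18.8%), against 4.60% of all 32851 promoters of the same length. ETS was found in 25 members (36.2%), against 8.86% of all promoters. YY1 (ATGGCGG) was found in 13 members (18.8%), against 4.05% of all promoters. At least 1 of the 3 motifs was present in 41 members (59.4%), against 15.5% of all promoters, whereas the TATA box (TATAAA) was present in 4 members (5.80%), against 13.6%. Both strands were searched and no member had 2 different motifs that shared bases. These matches describe the letters of the windows and are not binding sites.

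The summed counts per cell ran from 269393 to 459859 in the lactate experiment, from 58444 to 175450 in the AZD3965 experiment and from 494520 to 851417 in the technique comparison. The cells were checked against 18 macrophage markers. The control cell CTL32 went against its label, with 48318 CPM (counts-per-million, a gene's share of all counts of the cell) for 14 fibroblast markers and 1257 CPM for macrophage markers. In 3 further cells, Lactic29 (lactate), CTL30 (control) and W14 (lactate+AZD), fibroblast markers reached 17.6, 26.7 and 64.4% of the level of the macrophage markers. The sums of the Mrp and mt- genes, and described members whose 2-fold call they end, are given with and without these 4 cells. Sums by structure, origin and place in the ribosome, and of cytosolic ribosomal proteins, are given with them only. In the AZD3965 experiment 6215 values were a count of 2 but only 1914 were a count of 1, which the counting intervals do not take into account.

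Mrp transcripts were present in every cell at a low level. A cell held counts for 27 to 76 of the 78 genes (median 59), and together they took 1591 to 4004 CPM (median 2481 CPM) of a cell. Only Mrps21, a small subunit protein with a bacterial counterpart, had a count in all 35 cells. Its level ran from 29.4 to 58.6 CPM in the lactate cells (median 48.2 CPM) and from 25.3 to 86.0 CPM in the control cells (median 48.5 CPM). It had 49.6, 33.4, 49.5, 51.3 and 44.3 CPM in the lactate+AZD cells, against 37.7, 91.2, 29.98, 37.0 and 55.2 CPM in the lactate cells of that experiment. The groups overlapped in both pairs, and its lowest level in any cell was 12.1 CPM, in the whole lactate cell Lactic5. Of the 78 genes, 74 had a count in at least 50% of the cells, the median gene in 27 cells, and none was without a count throughout. The least often counted were Mrpl47 in 7 cells and Mrps34 in 8 cells.

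Mrps34, a small subunit protein specific to mitochondria (ENSMUSG00000038880, chromosome 17 of mm10, 24895116 to 24897502), was counted only in the AZD3965 experiment. It had 0 counts in all 25 cells of the lactate experiment and the technique comparison, and it was the only member of the 78 to be at 0 there. A count of 0 allows up to 0.987 CPM over the lactate group and 1.02 CPM over the control group (3 counts each). In GENCODE M21 its exons share 1309 bases with exons of Mapk8ip3 on the opposite strand. Whether counting used the strand is not given in the sources used here, and the part of this overlap in the zero counts was not tested. Exons of 33 members overlap those of another gene, in 23 cases a protein-coding one, which leaves the counts of these members uncertain. Mrps25 shares 4590 bases with Nr2c2, Mrpl19 shares 1962 bases with Gcfc2, and Mrpl48 shares 708 bases with Rab6a.

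The 10 most abundant members, by the mean of the 7 group levels, took 24.1% of the summed mean level. They were Mrpl33, Mrpl28, Mrpl12, Mrpl42, Mrpl20, Mrps14, Mrpl52, Mrpl51, Mrps33 and Mrpl36. Divided by transcript length, the highest levels were those of Mrpl33 at 161 CPM per kb, Mrpl52 at 133 CPM per kb, Mrps21 at 99.7 CPM per kb and Mrpl42 at 90.3 CPM per kb. The lowest were those of Mrpl3, a large subunit protein of the peptidyl transferase core, at 2.68 CPM per kb, and of Mrpl47 at 1.40 CPM per kb. Members with a bacterial counterpart had a median of 21.0 CPM per kb and those specific to mitochondria a median of 14.8 CPM per kb.

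**Figure D1:**
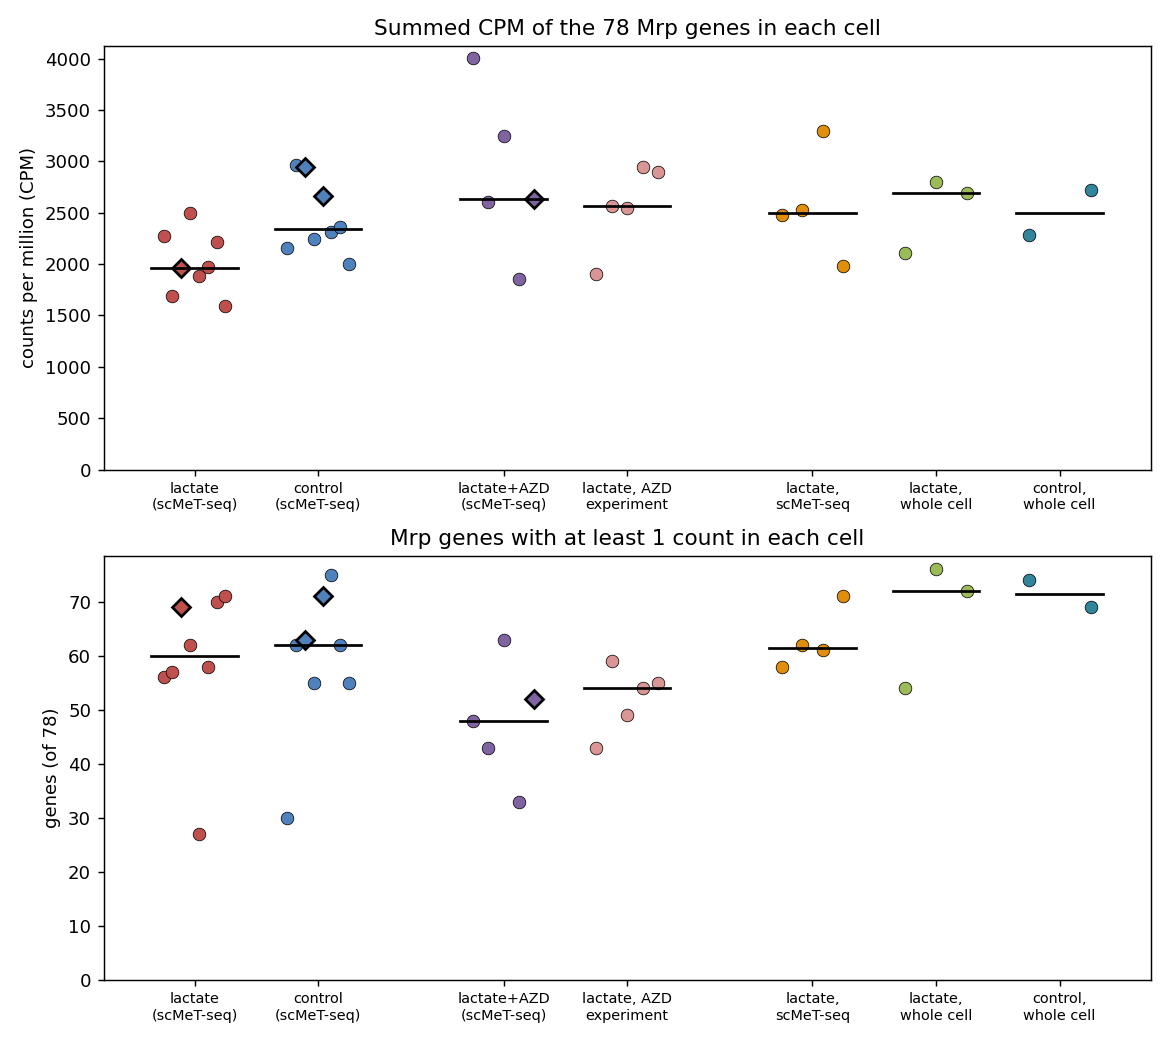
Summed CPM of the 78 Mrp genes (top) and number of Mrp genes with at least 1 count (bottom) in each cell, by group; each point is 1 cell, lines are medians and diamonds are the 4 cells in which fibroblast markers reached 10% of macrophage markers. Levels ran from 1591 to 4004 CPM and overlapped within each compared pair, and the number of genes ran from 27 in Lactic31 to 76 in Lactic6.

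The number of Mrp genes with a count followed the number of all genes with a count. Their Spearman correlation was 0.84 over the 35 cells (Pearson 0.87), given as a description, since cells of an experiment share depth and preparation. In the lactate experiment 27 to 71 members (median 60) had a count in lactate cells and 30 to 75 (median 62) in control cells. In the AZD3965 experiment, the shallowest, the medians were 48 members in lactate+AZD cells and 54 in lactate cells, and after thinning to 58444 counts they were 47.5 members in lactate+AZD cells and 49.8 in lactate cells. In the technique comparison 58, 62, 61 and 71 members had a count in the scMeT-seq cells, against 54, 76 and 72 in the whole lactate cells. Thinned to the smallest total of the experiment, 494520 counts, the medians were 61.0 members in scMeT-seq cells and 71.5 in whole lactate cells. Thinning left the medians at 58.9 members in lactate cells and 61.4 in control cells of the lactate experiment.

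The first question was whether 72 h of lactate went with another level of the genes of the mitochondrial ribosome. Summed over cells, they took 2008 CPM with lactate (exact Poisson 95% interval 1958 to 2059 CPM) and 2492 CPM in control cells (2435 to 2549 CPM). The log2 ratio of the sums was -0.31 (exact conditional binomial 95% interval -0.36 to -0.26). The intervals here and below cover counting error only, since PCR copies without molecular identifiers are not independent molecules. Single cells ran from 1591 to 2496 CPM with lactate (median 1967 CPM) and from 2000 to 2966 CPM in control cells (median 2341 CPM), so the groups overlapped. Fibroblast markers summed to 1287 CPM with lactate and 7507 CPM in control cells, and macrophage markers to 71126 CPM with lactate and 63563 CPM in control cells. Without the 3 fibroblast-marker cells the Mrp sums were 2015 CPM in 7 lactate cells and 2380 CPM in 6 control cells, a log2 ratio of -0.24. The ratio stayed below 0 in all 16 settings that left out 1 cell.

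More members were lower than higher with lactate. Of the 76 members with at least 10 counts over both groups, 53 were lower with lactate and 23 higher, with a median log2 ratio of -0.29, while the median of all 11506 genes with that many counts was -0.09 and 54.2% of them were lower. At least 2-fold higher were 3 members, against 15.1% of all genes, and at least 2-fold lower were 9 members, against 22% of all genes, so both shares of the members lay below the background. Whichever 1 cell was left out, 0 of the 3 and 6 of the 9 stayed past 2-fold. The large subunit by structure had a log2 ratio of -0.32 (-0.38 to -0.27) and the small subunit one of -0.25 (-0.34 to -0.15). Members with a bacterial counterpart stood at -0.35 (-0.41 to -0.29), those specific to mitochondria at -0.20 (-0.29 to -0.11). By place in the ribosome, the 4 genes of the peptidyl transferase core, where amino acids are joined, stood at -0.54 (-0.78 to -0.31) and the 7 of the decoding site and message path at -0.48 (-0.67 to -0.29). The 5 genes of the factor-binding stalk stood at -0.24 (-0.42 to -0.07), the 6 of the central protuberance at -0.21 (-0.40 to -0.02) and the 5 of the exit tunnel at -0.19 (-0.40 to 0.03). Of the cytosolic ribosomal protein genes, which build the other ribosome of the cell, 0 were 2-fold higher and 2 were 2-fold lower among 78, and their summed ratio was -0.14 (-0.16 to -0.12).

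Among the small subunit members, Mrps12, whose product is known from bacteria to sit at the decoding site, was the lowest named one with lactate (ENSMUSG00000045948, chromosome 7, 28739641 to 28741820). It ran from 0.0 to 33.6 CPM in lactate cells (median 9.88 CPM) and from 0.0 to 88.1 CPM in control cells (median 46.3 CPM). Of the control cells 6 had a count and all 6 lay above every lactate cell, while CTL27 and CTL31 had none. The log2 ratio was -1.78 (-2.34 to -1.26), and -1.64 without the fibroblast-marker cells. Mrps15, with a bacterial counterpart, had a count in 5 lactate cells and in 8 control cells, with 17.8 CPM with lactate and 45.2 CPM in control cells and a log2 ratio of -1.35 (-1.83 to -0.88). Without the fibroblast-marker cells this ratio was -0.999, just short of 2-fold.

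In the large subunit, Mrpl21 (ENSMUSG00000024829, chromosome 19, 3282901 to 3292837) ran from 0.0 to 55.8 CPM in lactate cells (median 10.0 CPM) and from 0.0 to 134 CPM in control cells (median 50.1 CPM). Its ranges overlapped, and CTL27 held 30.6% of the level summed over control cells. The log2 ratio was -1.68 (-2.17 to -1.21), and -1.89 without the fibroblast-marker cells. Mrpl1, of the stalk that guides the spent tRNA out (ENSMUSG00000029486, chromosome 5, 96209493 to 96266727), ran from 0.0 to 56.3 CPM in lactate cells (median 10.8 CPM) and from 0.0 to 84.5 CPM in control cells (median 43.7 CPM). Its log2 ratio was -1.31 (-1.78 to -0.87). Mrpl19 stood at -1.63 (-2.20 to -1.09), with counts in 4 lactate cells and 5 control cells.

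Fewer members were higher with lactate, and single cells held much of their level. Mrps16, a small subunit protein with a bacterial counterpart, had 20.1 CPM with lactate and 6.80 CPM in control cells, a log2 ratio of 1.56 (0.81 to 2.37), but Lactic31 held 47.2% of the level summed over lactate cells and the ratio was 0.95 without that cell. Mrpl9 stood at 1.12 (0.46 to 1.80), with 48.1% of its level in Lactic31, and at 0.68 without the fibroblast-marker cells. Mrps35 stood at 1.09 (0.39 to 1.81). Mrpl40, of the central protuberance of the large subunit, had 37.2 CPM with lactate and 19.7 CPM in control cells, a log2 ratio of 0.92 (0.45 to 1.40). Mrpl45, which holds the ribosome at the inner membrane, stood at 0.88 (0.37 to 1.40). The ratio of Mrps35 was 0.52 without Lactic34 and 2.60 without CTL31, that of Mrpl9 was 0.52 without Lactic31 and 2.21 without CTL34, and that of Mrpl40 was 1.83 without CTL27. The ratio of Mrpl19, in turn, was -2.56 without Lactic32.

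**Figure D2:**
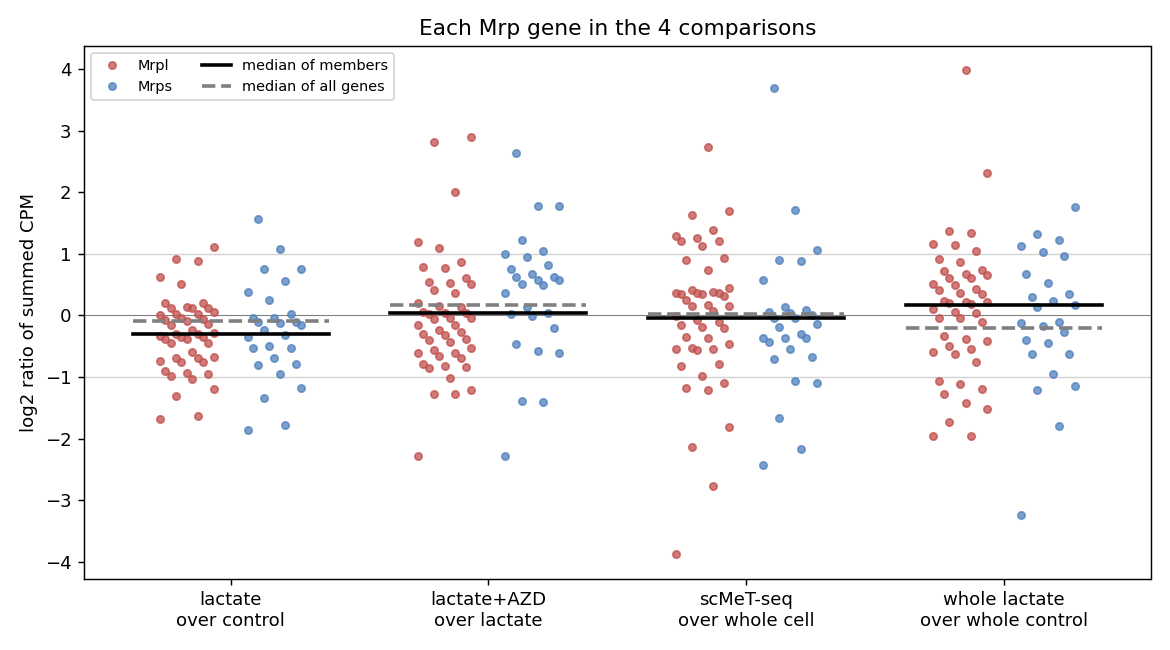
Log2 ratio of summed CPM of each Mrp gene with at least 10 counts in the 4 comparisons, Mrpl in red and Mrps in blue; a sum of 0 was set to 3 counts, and light lines mark a 2-fold difference. The median of the members (black) was -0.29 for lactate over control and 0.17 for whole lactate over whole control, beside -0.09 and -0.20 for all genes (dashed). The whole-cell median of the members turned below 0 in 3 of 5 settings that left out 1 cell.

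The other genes of mitochondrial gene expression did not all lie on the same side. Over all genes of this comparison, 15.1% were at least 2-fold higher and 22% at least 2-fold lower. The 13 protein-coding mt- genes, which the mitochondrial ribosome translates, took 1.06% of the summed counts with lactate and 1.70% in control cells, a log2 ratio of -0.68 (-0.70 to -0.66). Single cells ran from 0.53 to 2.26% with lactate and from 0.53 to 3.40% in control cells. The ratio was -0.45 without CTL30 and -0.96 without Lactic29, and -0.79 without the fibroblast-marker cells. None of the 13 was 2-fold higher and 4 were 2-fold lower, with mt-Co1 at -0.54 (-0.57 to -0.51) and mt-Atp6 at -1.10 (-1.17 to -1.03). Of 7 genes for mitochondrial transcription and replication, 4 were 2-fold lower and 0 higher. The DNA polymerase Polg stood at -0.98 (-1.40 to -0.56) and the transcription factor Tfb2m at -2.81 (-3.63 to -2.06). Tfb2m was counted in 2 lactate cells and 4 control cells. Apart from Lars2, single genes of the other mitochondrial lists were not checked by leaving out cells.

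Among 18 of 20 assembly factors of the mitochondrial ribosome with at least 10 counts, 4 were 2-fold higher and 3 lower. The helicase Dhx30 stood at 2.26 (1.68 to 2.87) and Malsu1, short of 2-fold, at -0.17 (-0.58 to 0.23). Of 14 translation and messenger RNA factors 3 were 2-fold higher and 3 lower. Lrpprc, which stabilises mitochondrial messages, stood at 0.40 (0.08 to 0.73) and Gfm2 at -0.74 (-1.17 to -0.31). Of 15 mitochondrial tRNA synthetases 3 were higher and 4 lower, and Lars2, the leucyl synthetase, held most of their counts with summed levels of 2501 CPM with lactate and 1862 CPM in control cells, whereas Fars2 stood at 0.18 (-0.15 to 0.51). The next highest synthetases were far below Lars2, with Fars2 at 54.3 CPM with lactate and Nars2 at 64.2 CPM in control cells. Whether all counts of Lars2 came from its own message was not tested, here and in the other comparisons. The median of Lars2 over cells was lower with lactate, at 1581 CPM, against 1658 CPM in control cells. Lactic31 had 6239 CPM, and without it the log2 ratio of the Lars2 sums was 0.18, against 0.43 with it. Of 5 mitoribosomal proteins with other symbols none was past 2-fold, with Aurkaip1 at 0.17 (-0.13 to 0.47) and Dap3 at -0.93 (-1.35 to -0.51). Beside these list counts stand the shares over all genes, 15.1% higher and 22% lower.

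The second lactate comparison used cells lysed whole, and shares no cell with the first. Mrp genes took 2565 CPM in 3 whole lactate cells and 2456 CPM in 2 whole control cells, a log2 ratio of 0.06 (-0.00 to 0.13). Single cells had 2111, 2801 and 2692 CPM with lactate, against 2280 and 2724 CPM in control cells, so the control cells lay within the range of the lactate cells. Scaling with TMM, which sets the middle of the genes equal, moved every ratio by 0.19, and the sum then stood at 0.25. Of 75 members 42 were higher and 33 lower, with a median of 0.17 beside -0.20 for all 9732 genes. This median turned below 0 in 3 of 5 settings that left out 1 cell, to -0.072 without Lactic7, -0.026 without CTL4 and -0.023 without Lactic6. At least 2-fold higher were 12 members, against 15.2% of all genes, and at least 2-fold lower were 13, against 27.6% of all genes. The direction of the sum turned when CTL4 was left out, to -0.087, and when Lactic6 was left out, to -0.011. Of the calls, 2 of the 12 and 4 of the 13 stayed past 2-fold whichever 1 cell was left out. By place in the ribosome, the peptidyl transferase core stood at 0.56 (0.25 to 0.87), whereas it was at -0.54 for lactate over control. Its genes Mrpl2, Mrpl3, Mrpl16 and Mrpl27 stood at -0.34, 0.50, 2.31 and 0.60 in whole cells. For lactate over control they stood at -1.19, -0.98, 0.13 and -0.07. Single genes thus weighed heavily in these sums, and the sums without 1 gene or 1 cell were not computed. In whole cells the decoding site and message path stood at -0.08 (-0.32 to 0.17), the factor-binding stalk at -0.17 (-0.42 to 0.08), the central protuberance at 0.25 (0.01 to 0.49) and the exit tunnel at -0.21 (-0.48 to 0.06).

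Member by member, the same sign in both lactate comparisons was about as frequent among the members as among all genes. Among the 74 members with enough counts in both, 35 (47.3%) had the same sign, and among all 9395 such genes 47.4% did. At least 2-fold lower in both were Mrpl1 and Mrpl21, 2 of the 74 members, against 498 of the 9395 genes. At least 2-fold higher in both were 0 members, against 200 genes. Past 2-fold in opposite directions were 2 members, against 764 genes. In whole cells Mrpl21 had 6.07, 14.7 and 14.2 CPM with lactate, against 22.3 and 35.7 CPM in control cells, so every lactate cell lay below the control cells. Its log2 ratio there was -1.20 (-2.04 to -0.40), short of 2-fold at -0.89 without CTL8 and -0.94 without Lactic5. Mrpl1 had 2.02, 21.2 and 17.3 CPM with lactate, against 49.3 and 12.5 CPM in control cells, with overlap and a log2 ratio of -1.27 (-2.03 to -0.55) that was 0.20 without CTL4. Mrps15 and Mrpl37 were 2-fold lower in the first comparison and 2-fold higher in the second, at 1.02 (0.55 to 1.52) and 1.16 (0.34 to 2.06), but without CTL4 the ratio of Mrps15 in whole cells was 0.28 and without Lactic6 that of Mrpl37 was 0.40. In the first comparison Mrpl37 was at -0.72 without the fibroblast-marker cells.

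Mrpl40 was higher with lactate in both. In whole cells it had 68.8, 47.3 and 26.7 CPM with lactate, against 12.9 and 25.0 CPM in control cells, without overlap, a log2 ratio of 1.37 (0.71 to 2.08) that was 0.88 without CTL4. Mrpl49, a large subunit protein specific to mitochondria (ENSMUSG00000007338, chromosome 19, 6053622 to 6057785), had 26.3, 40.8 and 62.9 CPM with lactate, against 3.52 and 1.78 CPM in control cells. The groups were far apart, at a log2 ratio of 3.98 (2.57 to 5.89) from 78 against 4 counts. In the scMeT-seq cells of the lactate experiment, however, Mrpl49 ran from 0.0 to 38.5 CPM with lactate and from 0.0 to 61.7 CPM in control cells. Mrpl30 stood at 1.15 (0.44 to 1.91), or 0.86 without Lactic5, and Mrpl54 at 0.72 (0.05 to 1.43) in whole cells. Mrps27, a small subunit protein, had 0 counts in the whole lactate cells and 23 counts in the whole control cells, at least 9.46-fold lower with the floor of 3 counts over the group, but 84.5% of the control level came from CTL8. Mrpl33, the most abundant member, had 42.5, 62.0 and 66.1 CPM with lactate, against 121 and 130.2 CPM in control cells, without overlap and at -1.10 (-1.47 to -0.74), or -0.96 without Lactic5.

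In these whole cells the mt- genes took 0.551% of the summed counts with lactate and 0.703% in control cells, a log2 ratio of -0.35 (-0.39 to -0.31), with 1 of the 13 2-fold lower. This ratio was -0.16 with TMM, and ran from -0.51 without Lactic7 to -0.14 without Lactic6. Of 15 assembly factors 5 were 2-fold higher and 4 lower, with Mterf3 at -0.54 (-1.05 to -0.03) and Mpv17l2 at -1.90 (-2.52 to -1.32). Of 12 translation factors 1 was higher and 4 lower, with Lrpprc at 0.23 (-0.21 to 0.69) and Gfm1 at -0.99 (-1.46 to -0.53). The lists thus held members on both sides, while 15.2% of all genes were 2-fold higher and 27.6% lower. Of 7 transcription genes 2 were higher and 3 lower, with Tfb2m at 1.00 (0.43 to 1.60) and Tfam, which packs mitochondrial DNA, at 0.23 (-0.49 to 0.97). Tfb2m was counted in 3 whole lactate cells and 1 whole control cell. Of 14 tRNA synthetases 5 were higher and 4 lower, with Lars2 at -1.24 (-1.33 to -1.15), or -0.91 without CTL8, and Fars2 at -0.50 (-0.93 to -0.08). Of 4 further mitoribosomal proteins 1 was higher and 1 lower, with Aurkaip1 at -0.41 (-0.74 to -0.08) and Dap3 at -0.53 (-1.05 to -0.01).

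**Figure D3:**
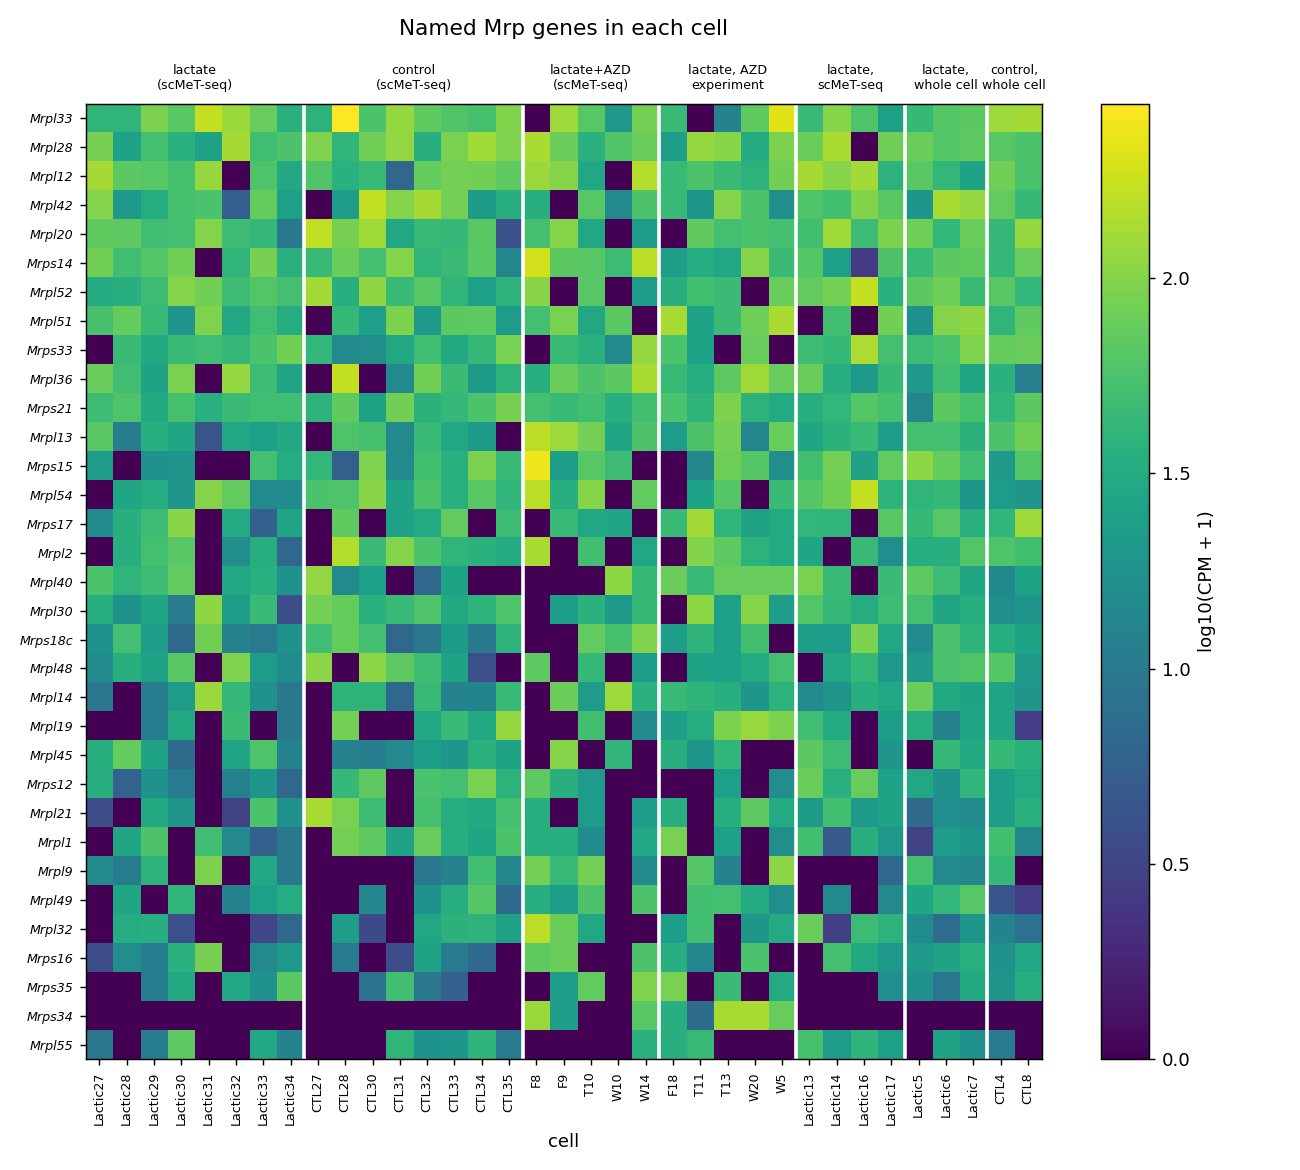
Levels of the 33 named Mrp genes as log10(CPM + 1) in each of the 35 cells, ordered by mean level from top to bottom and by group from left to right; dark fields are cells without a count. Mrps21 was counted in every cell and Mrps34 only in the AZD3965 experiment.

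In the AZD3965 experiment the question was whether blocking MCT1 went with another level under lactate. Mrp genes took 2713 CPM with lactate+AZD (2581 to 2850 CPM) and 2625 CPM with lactate (2508 to 2746 CPM), a log2 ratio of 0.05 (-0.05 to 0.14). The lactate+AZD cells T10, W10, W14, F8 and F9 had 3243, 1856, 2631, 4004 and 2600 CPM, against 2570, 2548, 2900, 2942 and 1900 CPM in the lactate cells T11, T13, W5, W20 and F18. The highest and the lowest of the 10 cells were thus both lactate+AZD cells. TMM moved every ratio by -0.16, which put the sum at -0.12, and the sum also turned below 0 without T10, at -0.046. Fibroblast markers summed to 4706 CPM with lactate+AZD and 1603 CPM with lactate, mesothelial markers to 487 CPM with lactate+AZD and 0 with lactate, and macrophage markers to 59073 CPM with lactate+AZD and 85882 CPM with lactate. Without W14, which held the most fibroblast transcripts, the Mrp ratio was 0.06. The lactate cell W5, with 7224 CPM for fibroblast markers, was kept in that ratio. Of 76 members 41 were higher and 35 lower, with a median of 0.05 beside 0.17 for all 8764 genes. The median of the members ran from -0.18 without T10 to 0.20 without W10. At least 2-fold higher were 11, against 24.9% of all genes, and at least 2-fold lower were 8, against 15.6% of all genes, and 5 of the 11 and 2 of the 8 stayed past 2-fold whichever 1 cell was left out.

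The 2 symbol classes were summed apart. Genes with an Mrps symbol took 988 CPM with lactate+AZD and 796 CPM with lactate, a log2 ratio of 0.31 (0.14 to 0.48), whereas Mrpl genes took 1726 CPM with lactate+AZD and 1829 CPM with lactate, at -0.08 (-0.20 to 0.04). The Mrpl ratio turned to 0.11 without W10, so that both classes were then above 0, and was -0.07 without W14. The Mrps ratio stayed above 0 whichever 1 cell was left out (0.22 to 0.44) and was 0.33 without W14, but it was 0.15 with TMM. Single cells had 719 to 1386 CPM of Mrps genes with lactate+AZD and 641 to 1024 CPM with lactate, with overlap. The ratio of Mrpl to Mrps levels was 1.75 with lactate+AZD and 2.30 with lactate. Grouped by structure it was 2.15 with lactate+AZD and 2.77 with lactate. Over the other groups it ran from 1.86 to 2.35 by symbol and from 2.01 to 2.53 by structure. Lactate+AZD thus lay outside their range by symbol and the lactate cells of that experiment by structure. Those groups come from other count tables, where levels of Mrps34 and Mrps18a differed. Mrps34 was at 0 there, and Mrps18a at 0 to 4.76 CPM, against 86.0 CPM with lactate+AZD and 66.6 CPM with lactate. W10 held 35 of the lactate+AZD counts of Mrps18a. The part of these genes in the ratios was not tested.

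Mrps14, a small subunit protein with a bacterial counterpart (ENSMUSG00000058267, chromosome 1, 160195215 to 160202170), had 63.7, 46.7, 156, 188 and 66.4 CPM with lactate+AZD, against 31.4, 28.5, 45.0, 98.7 and 22.1 CPM with lactate. It was counted in all 10 cells, and only the lactate cell W20 reached into the range of the lactate+AZD cells. Its log2 ratio was 1.00 (0.36 to 1.67), and 0.67 without W14. Mrpl54 stood at 1.09 (0.27 to 1.94), or 0.72 without W20, Mrps18c at 0.94 (0.09 to 1.83), Mrpl14 at 0.77 (-0.03 to 1.59), or 0.06 without W10, and Mrpl13 at 0.52 (-0.14 to 1.19). Mrps9 was counted in 2 lactate+AZD cells (15 counts in all) but in 0 lactate cells, at least 6.20-fold higher. Without W10, which held 10 of the counts, 5 were left, all in W14, and the bound was 1.48 on the log2 scale, against 2.63 with it.

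Mrpl19 (ENSMUSG00000030045, chromosome 6, 81957851 to 81965958) had 49.6, 0.0, 14.1, 0.0 and 0.0 CPM with lactate+AZD, against 31.4, 91.2, 89.9, 117 and 22.1 CPM with lactate. It was counted in 2 of 5 lactate+AZD cells and in 5 of 5 lactate cells, at a log2 ratio of -2.27 (-3.48 to -1.24) from 9 against 54 counts that was -4.04 without T10. Mrps34 had 0.0, 0.0, 63.6, 120 and 22.1 CPM with lactate+AZD, against 6.28, 131, 74.9, 136 and 33.1 CPM with lactate, a log2 ratio of -1.40 (-2.25 to -0.62), or -2.0003 without W14. Both groups overlapped for these genes. Mrps17 stood at -1.39 (-2.46 to -0.43) and Mrpl30 at -1.01 (-1.95 to -0.14), but without T11 they were at -0.71 and -0.57, and without W14 Mrps17 was at -0.99. Mrpl40 had a count in 2 of 5 lactate+AZD cells, W10 and W14, and in 5 of 5 lactate cells, where it was even at 44.0 to 77.3 CPM, and its log2 ratio was -0.85 (-1.64 to -0.09), with -2.29 without W10 and -0.44 without T10. Mrpl19 and Mrps34 overlap other genes as given above. The mt- genes took 1.08% of the summed counts with lactate+AZD and 1.20% with lactate, a log2 ratio of -0.16 (-0.21 to -0.11). This ratio was 0.08 without W20 and -0.27 without W14. None of the 13 was past 2-fold, against 24.9% of all genes higher and 15.6% lower. The ratio of mt-Co1 was -0.22 (-0.28 to -0.15) and that of mt-Nd1 was -0.24 (-0.39 to -0.10).

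The other mitochondrial lists had few counts at this depth. Of 13 assembly factors with enough counts 5 were 2-fold higher and 2 lower, with Rbfa at -0.17 (-1.01 to 0.65) and Malsu1 at -0.33 (-1.27 to 0.58). Of 10 translation factors 1 was higher and 4 lower, with Slirp, the partner of Lrpprc, at -1.16 (-2.05 to -0.33) and Lrpprc at 0.13 (-0.63 to 0.88). Both directions occurred within these lists, while 24.9% of all genes were 2-fold higher and 15.6% lower. Of 10 tRNA synthetases 3 were higher and 3 lower, with Lars2 at 0.76 (0.66 to 0.86) and Hars2 at -1.55 (-2.45 to -0.73). Of 3 transcription genes 2 were lower, with Tfb2m at 0.52 (-0.66 to 1.71) and Polg at -1.20 (-2.69 to 0.10). Of the 5 further mitoribosomal proteins 1 was higher and 1 lower, with Aurkaip1 at 0.03 (-0.45 to 0.50) and Ptcd3 at -2.31 (-3.85 to -1.06). Ptcd3 was counted in 1 lactate+AZD cell and 3 lactate cells, and Hars2 in 2 cells of each group.

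The technique comparison asked whether drawing off cytoplasm before lysis went with another transcript level. The summed level of the Mrp genes differed by less than the counting interval, at 2553 CPM in 4 scMeT-seq cells (2490 to 2617 CPM) and 2565 CPM in 3 whole lactate cells (2491 to 2642 CPM), a log2 ratio of -0.01 (-0.06 to 0.05). Single cells had 2481, 2523, 3300 and 1978 CPM after scMeT-seq, against 2111, 2801 and 2692 CPM in whole cells. The whole cells lay within the range of the scMeT-seq cells. The median of 77 members was -0.04 beside 0.02 for all 9723 genes. The members' median ran from -0.26 without Lactic5 to 0.17 without Lactic7. At least 2-fold higher were 12 members, against 21.7% of all genes, and at least 2-fold lower were 12, against 20.6% of all genes. When 1 cell was left out the sum ran from -0.15 (without Lactic16) to 0.11 (without Lactic17), on both sides of 0, and 3 of the 12 higher and 5 of the 12 lower members stayed past 2-fold whichever 1 cell was left out. The Mrpl sum stood at 0.09 (0.02 to 0.16), turning to -0.06 without Lactic16, and the Mrps sum at -0.21 (-0.31 to -0.11).

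Mrpl12, of the stalk that recruits translation factors (ENSMUSG00000039640, chromosome 11, 120484613 to 120489065), had 129, 100.1, 127 and 36.8 CPM after scMeT-seq, against 64.7, 40.8 and 25.2 CPM in whole cells. Of the scMeT-seq cells 3 lay above every whole cell and Lactic17 lay among them, at a log2 ratio of 1.21 (0.82 to 1.61) that was 0.91 without Lactic7. Mrpl54, listed with the same stalk (chromosome 10, 81264713 to 81266934), had 62.8, 82.7, 165 and 36.8 CPM after scMeT-seq, against 38.4, 42.4 and 18.9 CPM in whole cells, at 1.38 (0.95 to 1.83), or 0.85 without Lactic16. Mrpl32, a zinc-binding protein matured by a mitochondrial protease, had 78.5, 1.92, 46.3 and 36.8 CPM after scMeT-seq, against 14.2, 6.53 and 18.9 CPM in whole cells, at 1.69 (1.03 to 2.41). In each of these genes 1 scMeT-seq cell lay within or below the whole cells. Mrpl55 stood at 1.26 (0.60 to 1.97), or 0.78 without Lactic5.

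Mrpl21 did not overlap between the techniques, with 20.4, 50.03, 19.8 and 25.0 CPM after scMeT-seq, against 6.07, 14.7 and 14.2 CPM in whole cells and a log2 ratio of 1.21 (0.49 to 1.99), or 0.86 without Lactic14. The same 3 whole cells stood below the whole control cells above. Mrpl49 was lower after scMeT-seq, at 0.0, 13.5, 0.0 and 13.3 CPM, against 26.3, 40.8 and 62.9 CPM in whole cells, again without overlap and at -2.77 (-3.65 to -1.98). These whole lactate cells are the ones set against the whole control cells, so the 2 results on Mrpl49 and on Mrpl21 rest on shared cells. The same holds for Mrps27, with 54 counts after scMeT-seq and 0 in whole lactate cells, at least 12.9-fold higher. Lactic13 held 29 of these counts and Lactic14 none, and without Lactic13 the bound was 3.01 on the log2 scale, against 3.68 with it. Mrpl51 had 0.0, 50.03, 0.0 and 82.5 CPM after scMeT-seq, against 16.2, 96.3 and 109 CPM in whole cells, at -1.22 (-1.63 to -0.81), or -2.40 without Lactic17 and -0.78 without Lactic13. Mrpl48 stood at -1.10 (-1.63 to -0.58), or -0.66 without Lactic13, Mrpl2, of the peptidyl transferase core, at -0.98 (-1.51 to -0.46) and Mrps14 at -0.70 (-1.12 to -0.29).

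The mt- genes took 0.515% of the summed counts after scMeT-seq and 0.551% in whole lactate cells, with 1 of the 13 2-fold higher, mt-Co1 at -0.01 (-0.06 to 0.04) and mt-Atp6 at -0.35 (-0.47 to -0.23). The ratio of these sums, -0.10 (-0.13 to -0.06), turned to 0.077 without Lactic16 and was -0.31 without Lactic6. Over all genes of this comparison, 21.7% were 2-fold higher and 20.6% lower. Of 16 assembly factors with enough counts 4 were 2-fold higher after scMeT-seq and 7 lower, with Malsu1 at 0.78 (0.23 to 1.35) and Mpv17l2 at 0.62 (0.00 to 1.26). Of 14 translation factors 4 were higher and 6 lower, with Lrpprc at -1.08 (-1.54 to -0.64) and Gfm2 at 1.09 (0.57 to 1.63). Lrpprc was counted in 2 scMeT-seq cells and 2 whole lactate cells. Of 7 transcription genes 2 were higher and 4 lower, with Tfb2m at -2.79 (-3.61 to -2.05) and Polg at -0.60 (-1.28 to 0.08). Of 14 tRNA synthetases 2 were higher and 6 lower, with Lars2 at 0.61 (0.52 to 0.70) and Fars2 at 0.31 (-0.07 to 0.71). Of 4 further mitoribosomal proteins 0 were higher and 1 lower, with Aurkaip1 at -0.12 (-0.44 to 0.20) and Chchd1 at 0.89 (0.32 to 1.499).

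Cell by cell, the summed level of the Mrp genes was set beside the share of the mt- genes. Over all 35 cells the Spearman correlation was -0.05 (Pearson 0.02). It was 0.21 over the 16 cells of the lactate experiment (Pearson 0.25), 0.21 over the 10 cells of the AZD3965 experiment (Pearson 0.26) and -0.48 over the 9 cells of the technique comparison (Pearson -0.67). The points share library preparation and depth within an experiment, and the values are descriptions without a test. CTL31 and CTL30 had the highest mt- shares, 3.40 and 3.31%, with Mrp levels of 2249 and 2948 CPM. The lowest share, 0.32% in Lactic16, stood beside 3300 CPM, the second highest level of all cells. Without the 4 fibroblast-marker cells the correlation over 31 cells was -0.09.

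**Figure D4:**
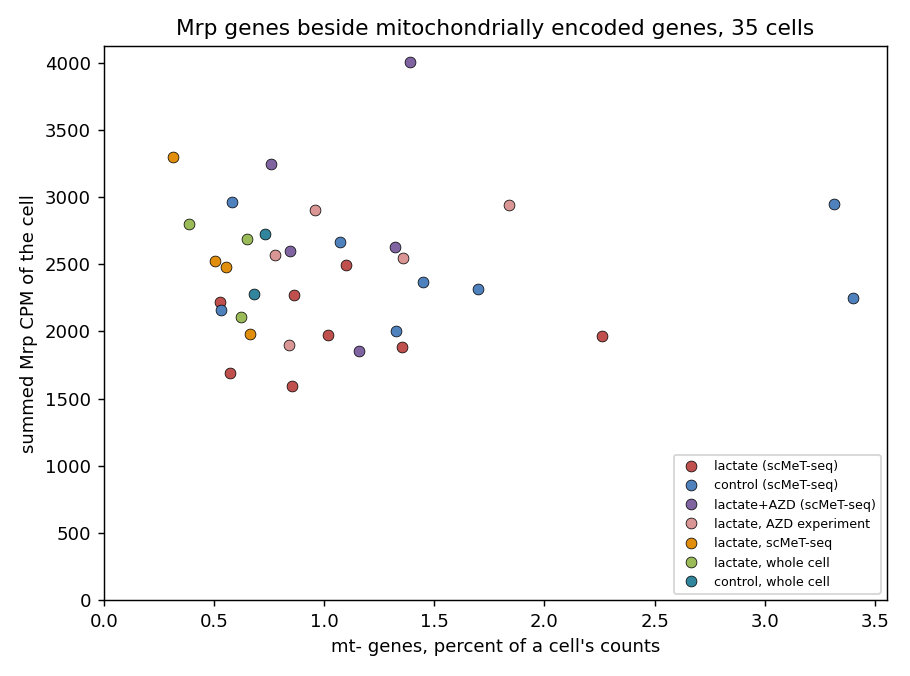
Summed Mrp CPM of each of the 35 cells against the percent of its counts from the 13 mt- genes, coloured by group; each point is 1 cell. The shares ran from 0.32 to 3.40%, and the cells with shares of 3.40 and 3.31% had Mrp levels of 2249 and 2948 CPM.

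The 2 members that lie head to head, Mrpl46 on the minus strand and Mrps11 on the plus strand of chromosome 7, share 173 bases of exon. Mrpl46 had a count in 19 cells and Mrps11 in 24, both in 15 cells and neither in 7.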

How the data were processed

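Libraries of 35 single cells were used, and the cells were grouped by their labels. The authors trimmed the reads with fastp 0.20.0, aligned them to mm10 with HISAT2 2.1.0 and assigned them to genes with StringTie, and the deposited values are raw whole-number counts per gene, without molecular identifiers. CPM, shares and log2 ratios of counts summed over a group were computed here with scipy 1.17.1, pandas 2.3.3 and numpy 2.4.6 under Python 3.11.15, TMM factors with edgeR 4.0.16 in R 4.3.3, and figures with matplotlib 3.10.9. Ratios were kept for genes reaching 10 counts in the 2 groups together, and a sum of 0 was set to 3 counts over the group. A ratio past 2-fold was counted as higher or lower. The intervals were tested only on counts simulated with Poisson error, the error they assume. That test does not cover PCR copies or the spread between cells. Gene positions and lengths of the principal transcript came from GENCODE M21 (GRCm38), promoters from RefSeq.

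The members, gene lists and comparisons were chosen with earlier results of these data known. Named are the 10 most abundant members, per comparison up to 5 highest and 5 lowest ratios among members with at least 50 counts over both groups, a count in at least 50% of the cells of the higher group and no cell with over 50% of its level, members counted in every cell, and the 2 most counted genes of each other mitochondrial list. Further members in the text were named after their values were seen. Alternatives were the mean of per-cell CPM, TMM, minimums of 100 counts and of 1 count, a detection limit of 5 counts and thinning. Further ones were all 5 whole cells, each cell left out in turn, and only the cells below the fibroblast-marker limit.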

Additional observations from a re-analysis of the deposited data

Results flagged for a closer look

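Of 20 combinations of group and per-cell measure that were checked, 2 had a cell far from the others of its group by Dixon's criterion, where chance gives about 1 in 20. In the lactate group 27 Mrp genes had a count in Lactic31, against 56 to 71 in the other 7 cells. In the control group 30 had a count in CTL27, against 55 to 75 in the other 7 cells. These 2 cells had the fewest detected genes of their groups, 5010 and 3392, and the smallest total counts, 289002 and 269393, while their summed Mrp levels, 1882 and 2160 CPM, lay within those of the other cells. Thinned to 269393 counts, Lactic31 had 26.9 members with a count, against 54.7 to 68.9 in the other lactate cells. CTL27 had 30 at that depth, against 53.8 to 74.6 in the other control cells. The part of depth and RNA quality in this was not otherwise tested.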

How the results depend on the processing

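No paired analysis was possible because no result comes from a test over samples and the shared numbers only name cells. For lactate over control, the log2 ratio of the summed Mrp level was -0.31 as reported, -0.23 with TMM and -0.24 without the fibroblast-marker cells, and ran from -0.36 to -0.26 when 1 cell was left out. The members 2-fold higher, 3 as reported, numbered 0 with a minimum of 100 counts and 1 to 4 when 1 cell was left out, and those lower 9 to 15. For lactate+AZD over lactate, the sum was 0.16 with the mean of per-cell CPM and -0.12 with TMM, and ran from -0.046 to 0.20 when 1 cell was left out, with 8 to 17 members higher and 5 to 16 lower. A minimum of 100 counts left no member in this comparison. For scMeT-seq over whole cells, the sum ran from -0.15 to 0.11 when 1 cell was left out, with 7 to 15 members higher and 9 to 19 lower, and a minimum of 100 counts left 6 higher and 7 lower. For whole lactate over whole control, the sum was 0.25 with TMM and ran from -0.087 to 0.17 when 1 cell was left out, with 10 to 19 members higher and 6 to 17 lower, and a minimum of 100 counts left 6 higher and 3 lower. The causes were not tested. In the AZD3965 experiment a limit of 5 counts lowered the median number of members with a count to 24 with lactate+AZD and 35 with lactate. Restricting the mt- genes to protein-coding ones could give no other value, since the tables hold 13 mt- genes, all of this kind. At the depth of the AZD3965 experiment 3 counts in a whole group equal 5.16 CPM with lactate+AZD and 4.16 CPM with lactate, and differences of single members below about this level were not detectable. Leaving out cells for single members, Lars2 and the Mrpl, Mrps and mt- sums, and other settings for the median of the members, were chosen after seeing the data.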
